A study of Mus musculus with 15 samples.

Results

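Nitric oxide and arginine metabolism was followed in macrophages through 8 genes, *Nos2*, *Gch1*, *Slc7a2*, *Arg1*, *Arg2*, *Odc1*, *Ass1* and *Asl*, out of 51763 genes in the count table. The rule names the 8 by their place in the pathway. RNA was sequenced from bone marrow-derived macrophages (BMDMs) of wild-type female C57BL/6NTac mice, 8 to 10 weeks old, grown with the growth factor M-CSF and stimulated for 24 h. The question was how the redox isoforms of HMGB1, a nuclear protein that acts as an alarm signal outside cells, compare with bacterial stimuli. There were 5 conditions with 3 libraries each. Unstimulated cells received PBS. The HMGB1 isoforms, fully reduced (frHMGB1) and disulfide-bonded (dsHMGB1), were each given at 5 µg/mL. Bacterial lipopolysaccharide (LPS) was given alone at 1 µg/mL, or together with 20 ng/mL of the cytokine IFNγ (LPS/IFNγ). Cells of 5 mice were pooled before seeding, so the libraries of a condition are technical replicates, and errors and p-values measure how much cultures and libraries vary, not how much mice do.

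The conditions differ in more than their names say. For LPS/IFNγ, the methods and the protocol text give 100 ng/mL of LPS, and the treatment label gives 1 µg/mL. A lower LPS dose and the added IFNγ cannot be told apart in comparisons of LPS/IFNγ with LPS. The reduced isoform was made in-house with the reducing agent DTT in its buffers and the disulfide isoform came from another laboratory without it, so redox form and source cannot be told apart either.

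Inducible nitric oxide synthase (*Nos2*) makes nitric oxide (NO) and citrulline from arginine, and it needs the cofactor tetrahydrobiopterin, whose synthesis starts with GTP cyclohydrolase (*Gch1*). Arginine enters through the cationic amino acid transporter *Slc7a2*. Arginase 1 and arginase 2 (*Arg1*, *Arg2*) split arginine into ornithine and urea instead, and ornithine decarboxylase (*Odc1*) turns ornithine into the first polyamine. Argininosuccinate synthase and lyase (*Ass1*, *Asl*) rebuild arginine from citrulline. In mouse macrophages, high *Nos2* is a classical marker of activation by LPS and IFNγ, and high *Arg1* a marker of alternative activation by IL-4.

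Total counts ranged from 40934540 to 80925478 per library. Of the listed macrophage markers, all 7 were counted, at a sum of 13146 to 27040 CPM per library, where CPM is the count of a gene per 1000000 counts of its library. This sum was 21598 to 25965 in PBS and 13146 to 13453 in LPS/IFNγ. It mostly follows *Lyz2*, which had 1267058 counts in PBS replicate 1, where *Csf1r*, the next marker, had 210559. Single markers moved in both directions. From PBS replicate 1 to LPS/IFNγ replicate 1 (65797491 and 68552023 total counts), *Lyz2* went from 1267058 to 646798 and *Mertk* from 7150 to 27196. The 5 fibroblast markers summed to 118 to 282 CPM, the 8 neutrophil markers to at most 5.56, the 4 mast cell markers to at most 2.69, the 5 lymphocyte markers to at most 0.152 and the 5 erythroid markers to at most 0.0356. Of these, 4 neutrophil, 1 mast cell, 2 lymphocyte and 4 erythroid markers had no count in any library. The part of these cells in the results was not tested, and in bulk RNA fewer cells of a type and less RNA per cell cannot be told apart. One library, PBS replicate 3, stood apart: its log2 CPM had a Pearson r of 0.939 and 0.934 with the other PBS libraries across genes, while the other pairs of replicates had 0.987 to 0.993, and processed pseudogenes took 1.49% of its counts against 0.805% and 0.816%. Results that turn on it are given with and without it.

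The members lie on separate loci of GRCm38. *Nos2* (ENSMUSG00000020826) is on chromosome 11 from 78920787 to 78960254, *Gch1* (ENSMUSG00000037580) on chromosome 14 from 47153895 to 47189413, *Slc7a2* (ENSMUSG00000031596) on chromosome 8 from 40862396 to 40922308, and *Arg1* (ENSMUSG00000019987) on chromosome 10 from 24915221 to 24927484. *Arg2* (ENSMUSG00000021125) is on chromosome 12 from 79130777 to 79156301, *Odc1* (ENSMUSG00000011179) on chromosome 12 from 17544794 to 17551505, *Ass1* (ENSMUSG00000076441) on chromosome 2 from 31470207 to 31520672, and *Asl* (ENSMUSG00000025533) on chromosome 5 from 130011258 to 130029247. All 8 are protein-coding, and the counts are summed over all exons of a gene. *Arg2* overlaps *Vti1b* on the opposite strand, which had 2343 to 6879 counts per library. The libraries were stranded, but the strand setting of the count is not given in the sources used here, so whether *Arg2* counts hold *Vti1b* reads was not tested.

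RefSeq promoter windows (GRCm38.p6, 250 bases before to 50 after the start) were at hand for only 3 of the 8 members, and all 3 are described. The window of *Gch1* holds a match to the NF-kB consensus at -10 from the start, GC boxes (GGGCGG) at -118 and -105, and TATAAA on the opposite strand at -188. The windows of *Ass1* and *Odc1* hold no NF-kB match. That of *Ass1* has an E-box (CACGTG) at -36 and a GC box at -63, and that of *Odc1* has 4 GC boxes, the nearest at -15. Positions count from the RefSeq start, which for *Gch1* is that of the gene model given above, but lies 63 bases inside the gene model of *Ass1* and 79 inside that of *Odc1*, so the capitals shown for *Ass1* and *Odc1* lie within those gene models. The bases before the start of *Gch1* are given whole and the others with 10 bases on each side, 5′ to 3′ along the gene, with the matches in capitals:
Gch1, minus strand, chr14:47189414-47189663: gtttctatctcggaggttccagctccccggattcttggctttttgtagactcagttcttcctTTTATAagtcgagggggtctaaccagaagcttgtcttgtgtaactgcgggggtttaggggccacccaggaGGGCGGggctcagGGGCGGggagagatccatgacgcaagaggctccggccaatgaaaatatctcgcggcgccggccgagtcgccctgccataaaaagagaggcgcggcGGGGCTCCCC
Ass1, E-box, plus strand, chr2:31470224-31470249: cgcccgtcccCACGTGtcccaggttc
Ass1, GC box, plus strand, chr2:31470197-31470222: ccgggcccgaGGGCGGggcctttctc
Odc1, GC box, plus strand, chr12:17544848-17544873: cacggagtccCCGCCCctcccccgcg

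Both strands of all 32851 windows of this length were searched in the same way. The NF-kB consensus was matched in 8.46% of them, GGGCGG in 35.7%, TATAAA in 13.6% and CACGTG in 7.15%. None of the 3 windows held TTCNNNGAA (a GAS element, in 8.30% of all windows), GAAANNGAA (the core of an ISRE, 8.56%), TGACGTCA (a CRE, 1.79%), TGANTCA (AP-1, 7.81%) or TTGCATCA (a C/EBP-ATF response element, 0.895%). A match is a description of the letters, not of binding.

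*Nos2* went from near absence in PBS to one of the most abundant transcripts in LPS/IFNγ. Below, a normalized count is a count divided by the size factor of its library, and a gene is called where the Benjamini-Hochberg adjusted p of edgeR over all tested genes was under 0.05. Normalized counts of *Nos2* were 9.70, 5.68 and 11.7 in PBS, from 34 counts in all, and 20.3, 12.3 and 0 in frHMGB1. They were 14931, 14510 and 14836 in dsHMGB1, then 86227, 92258 and 97716 in LPS, and 226893, 231857 and 229447 in LPS/IFNγ. PBS and frHMGB1 overlapped, and the 3 other conditions were ordered dsHMGB1, LPS, LPS/IFNγ with no overlap between any of them. Relative to PBS, the log2 fold change reached 10.75 in dsHMGB1 (standard error 0.26, edgeR adjusted p = 9.01e-10), 13.39 in LPS (standard error 0.26, edgeR adjusted p = 1.18e-10) and 14.71 in LPS/IFNγ (standard error 0.26, edgeR adjusted p = 5.97e-11). These sizes rest on few PBS counts: with each library left out in turn, the value in dsHMGB1 was 10.47 to 10.91. In frHMGB1 it was 0.35 (standard error 0.37, edgeR adjusted p = 0.821). These are RNA levels, and NO itself was not measured in these libraries. The paper cites its authors' earlier work, in which BMDMs released measurable NO after LPS/IFNγ but not after dsHMGB1.

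The steps between the stimuli were also larger than the spread between libraries. LPS exceeded dsHMGB1 by 2.64 on the log2 scale (standard error 0.09, edgeR adjusted p = 7.26e-05), and LPS/IFNγ exceeded LPS by 1.32 (standard error 0.09, edgeR adjusted p = 0.006). In CPM per kb of exon, *Nos2* had 0.044 ± 0.0118 (SD, n = 3) in PBS, 57.2 ± 0.925 in dsHMGB1, 283 ± 13.9 in LPS and 711 ± 8.91 with LPS/IFNγ. On this scale it ranked 12514 of 21649 protein-coding genes in PBS, 798 in dsHMGB1, 158 in LPS and 50 with LPS/IFNγ, where it took 0.310% to 0.318% of all counts. None of the other 7 members ranked higher than 359, the rank of *Slc7a2* in LPS.

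*Gch1*, the entry step to tetrahydrobiopterin, was already transcribed in unstimulated cells and did not follow the order of *Nos2*. Normalized counts were 1236, 1213 and 1571 in PBS, 1499, 1681 and 1551 in frHMGB1, 16738, 13769 and 14022 in dsHMGB1, 22704, 22374 and 23631 in LPS, and 14667, 14751 and 15806 in LPS/IFNγ. LPS was highest in all 3 libraries, and the ranges of dsHMGB1 and LPS/IFNγ overlapped. Log2 fold changes over PBS were 3.47 in dsHMGB1 (standard error 0.12, edgeR adjusted p = 2.72e-11), 4.10 in LPS (edgeR adjusted p = 4.51e-12) and 3.50 in LPS/IFNγ (edgeR adjusted p = 1.28e-11).

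LPS/IFNγ was lower than LPS by a log2 difference of -0.60 (standard error 0.12, edgeR adjusted p = 0.000973), the opposite direction to *Nos2*. Between LPS/IFNγ and dsHMGB1 the log2 difference was 0.02 (standard error 0.12, edgeR adjusted p = 0.977), and it was -0.30 and called lower when libraries were scaled by their totals. In frHMGB1 the value over PBS was 0.24 (standard error 0.12, edgeR adjusted p = 0.198), and 0.37 and called without PBS replicate 3. The higher normalized count of that library goes with its scaling: in CPM the PBS libraries had 28.6 to 29.4 and the frHMGB1 libraries 33.5 to 38.4.

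*Slc7a2*, the transporter that carries arginine into the cell, showed the greatest rise after *Nos2*. Normalized counts were 1121, 1148 and 567 in PBS, 1090, 862 and 927 in frHMGB1, 15650, 18352 and 16167 in dsHMGB1, 87140, 93626 and 92341 in LPS, and 60357, 61270 and 60002 in LPS/IFNγ. The low PBS value is that of replicate 3, and dsHMGB1, LPS and LPS/IFNγ did not overlap PBS or each other. The transporter rose over PBS by 4.14 on the log2 scale in dsHMGB1 (standard error 0.22, edgeR adjusted p = 9.78e-09), 6.59 in LPS (edgeR adjusted p = 1.65e-10) and 6.0 in LPS/IFNγ (edgeR adjusted p = 2.98e-10). LPS exceeded dsHMGB1 by 2.44 (standard error 0.21, edgeR adjusted p = 5.84e-06), close in size to the step of *Nos2*.

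All 3 LPS/IFNγ libraries lay below all 3 LPS libraries, at a log2 difference of -0.59 (standard error 0.21), but edgeR did not call it (adjusted p = 0.0775). It was called by DESeq2, with RLE normalization and when the 2 groups were fitted alone. For frHMGB1 the difference from PBS was 0.02 (standard error 0.22, edgeR adjusted p = 0.975). Without PBS replicate 3 it turned to -0.24 and was called lower.

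**Figure D1:**
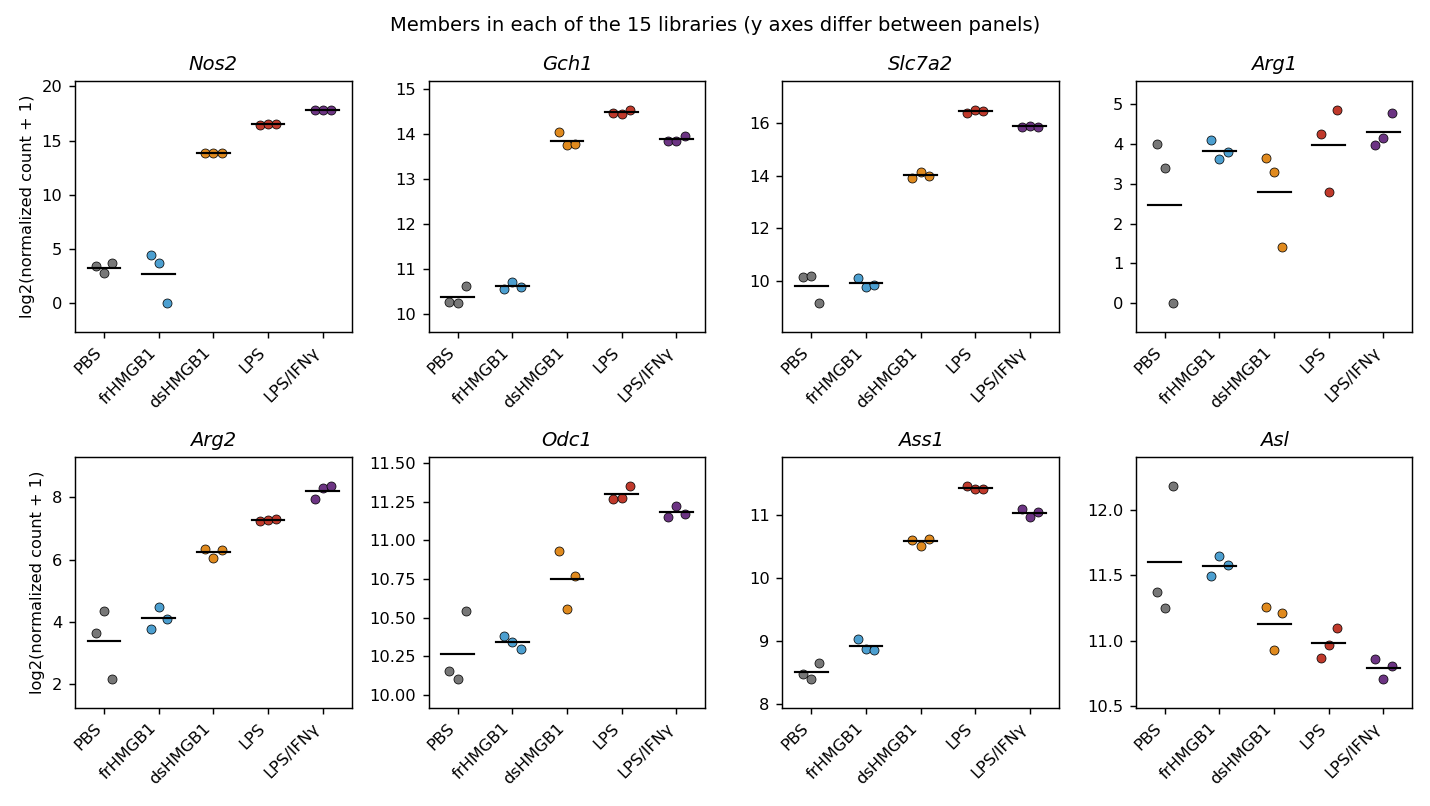
Normalized counts of the 8 members in each of the 15 libraries, as log2(normalized count + 1) on the y axis, which differs between panels, with the 5 conditions on the x axis, 1 point a library and a bar at the mean of 3. PBS and frHMGB1 sit together in most panels, *Nos2* climbs from dsHMGB1 to LPS to LPS/IFNγ, *Gch1*, *Slc7a2* and *Ass1* are highest in LPS, *Asl* falls, and *Arg1* is scattered near its detection limit.

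The arginases behaved differently from each other. *Arg1*, the arginase of alternatively activated macrophages, was barely counted in any condition. Its normalized counts were 14.9, 9.46 and 0 in PBS, 16.0, 11.2 and 12.9 in frHMGB1, 11.6, 8.80 and 1.68 in dsHMGB1, 18.1, 5.98 and 27.9 in LPS, and 14.8, 16.8 and 26.5 in LPS/IFNγ, with at most 29 counts in any library. LPS/IFNγ lay above dsHMGB1 in every library, at a log2 difference of 1.40 (standard error 0.81, edgeR adjusted p = 0.221), and the other pairs overlapped. *Arg1* was not called in any of the 10 pairs of conditions. Against PBS its log2 fold change was 0.67 for frHMGB1 (edgeR adjusted p = 0.761), -0.20 for dsHMGB1 (0.808), 1.04 for LPS (0.340) and 1.2 for LPS/IFNγ (0.233), with standard errors of 0.80 to 0.82. At this depth a change of *Arg1* of that size was not detectable.

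*Arg2*, the mitochondrial arginase, was low but rose with each stimulus other than frHMGB1. Normalized counts were 11.6, 19.6 and 3.52 in PBS, 12.8, 21.5 and 16.2 in frHMGB1, 80.9, 66.0 and 78.2 in dsHMGB1, 150, 155 and 159 in LPS, and 248, 316 and 332 in LPS/IFNγ. From dsHMGB1 to LPS to LPS/IFNγ the libraries did not overlap, the same order as for *Nos2*. Log2 fold changes over PBS were 2.57 in dsHMGB1 (standard error 0.31, edgeR adjusted p = 6.10e-05), 3.62 in LPS (standard error 0.31, edgeR adjusted p = 1.92e-06) and 4.57 in LPS/IFNγ (standard error 0.31, edgeR adjusted p = 1.78e-07), and 0.42 in frHMGB1 (edgeR adjusted p = 0.631). The steps from dsHMGB1 to LPS (1.05, standard error 0.25, edgeR adjusted p = 0.0363) and from LPS to LPS/IFNγ (0.95, standard error 0.24, edgeR adjusted p = 0.0342) were each lost when any library of their own 2 conditions was left out, at 0.96 to 1.10 and 0.86 to 1.06. Even in LPS/IFNγ, *Arg2* had 2.85 ± 0.405 CPM per kb of exon (SD, n = 3), against 711 for *Nos2*.

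*Odc1*, the entry to polyamines, changed least among the genes that rose. Normalized counts were 1139, 1099 and 1490 in PBS, 1331, 1297 and 1259 in frHMGB1, 1954, 1502 and 1746 in dsHMGB1, 2466, 2471 and 2617 in LPS, and 2276, 2384 and 2305 in LPS/IFNγ. The nearest values of PBS and dsHMGB1, 1490 and 1502, almost touched, while LPS and LPS/IFNγ lay clear of both. Its log2 rise over PBS was 0.48 in dsHMGB1 (standard error 0.13, edgeR adjusted p = 0.00313), 1.02 in LPS (standard error 0.13, edgeR adjusted p = 6.01e-06) and 0.91 in LPS/IFNγ (standard error 0.13, edgeR adjusted p = 1.27e-05). In frHMGB1 it was 0.06 (edgeR adjusted p = 0.763), and between LPS/IFNγ and LPS -0.12 (edgeR adjusted p = 0.662). The rise in dsHMGB1 was not called when these 2 groups were fitted alone (0.50). Scaling by library totals gave 0.14 in dsHMGB1, which was not called, and 0.35 in LPS and 0.24 in LPS/IFNγ, which were.

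The enzymes that rebuild arginine moved in opposite directions. *Ass1*, which joins citrulline to aspartate, had normalized counts of 355, 337 and 402 in PBS, 522, 466 and 463 in frHMGB1, 1547, 1456 and 1572 in dsHMGB1, 2809, 2722 and 2714 in LPS, and 2175, 1998 and 2104 in LPS/IFNγ. None of the 5 conditions overlapped another, and LPS was highest. Log2 fold changes over PBS were 2.07 in dsHMGB1 (standard error 0.09, edgeR adjusted p = 4.80e-10), 2.92 in LPS (standard error 0.09, edgeR adjusted p = 1.64e-11) and 2.53 in LPS/IFNγ (standard error 0.09, edgeR adjusted p = 4.28e-11). LPS/IFNγ was below LPS by a log2 difference of -0.39 (standard error 0.08, edgeR adjusted p = 0.00721).

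*Ass1* was the only member called in frHMGB1. Its log2 fold change there was 0.42 (standard error 0.10, edgeR adjusted p = 0.0078), higher in 3 of 3 libraries, and in CPM the ranges were 7.54 to 8.34 in PBS and 10.5 to 11.6 in frHMGB1. The call was lost with no filter on low counts (0.36), over protein-coding genes alone (0.34), and with PBS and frHMGB1 fitted alone (0.39), and it was kept with each library left out, at 0.37 to 0.48.

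*Asl*, which releases arginine from argininosuccinate, was the only member called lower than in PBS. Normalized counts were 2650, 2436 and 4646 in PBS, 2878, 3198 and 3050 in frHMGB1, 2444, 1944 and 2367 in dsHMGB1, 1871, 1999 and 2192 in LPS, and 1856, 1672 and 1788 in LPS/IFNγ. PBS replicate 3 lay far above the other PBS libraries, and dsHMGB1 overlapped PBS. Its log2 difference from PBS was -0.53 in dsHMGB1 (standard error 0.21, edgeR adjusted p = 0.0278), -0.68 in LPS (standard error 0.21, edgeR adjusted p = 0.003) and -0.87 in LPS/IFNγ (standard error 0.21, edgeR adjusted p = 0.000763). Without PBS replicate 3 the values were -0.18 in dsHMGB1, no longer called, -0.34 in LPS and -0.53 in LPS/IFNγ, both still called. The call in dsHMGB1 was also lost without dsHMGB1 replicate 2 (-0.43) or 3 (-0.56), and that in LPS when PBS and LPS were fitted alone (-0.65). In frHMGB1 the value was -0.09 (edgeR adjusted p = 0.904), and 0.26 and not called without PBS replicate 3.

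**Figure D2:**
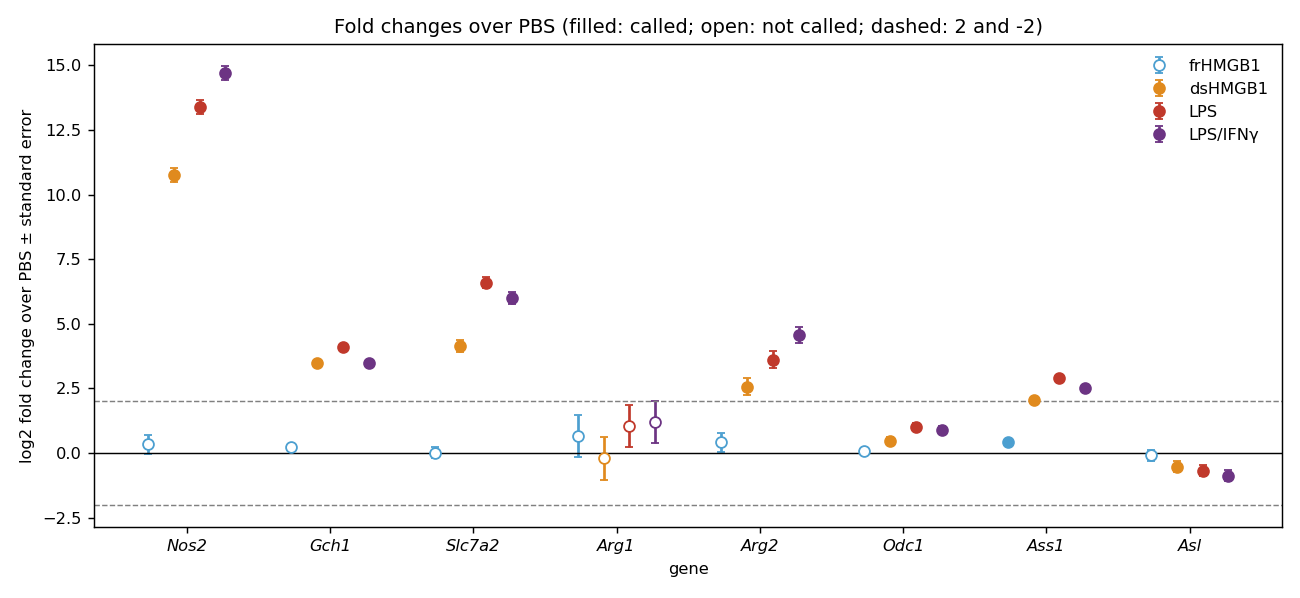
Log2 fold changes over PBS (y axis) of the 8 members (x axis) in the 4 stimulations, with bars for the standard error, filled points for genes called by edgeR and dashed lines at 2 and -2. *Nos2* reaches 14.71 in LPS/IFNγ, 5 members lie above 2 in dsHMGB1, LPS and LPS/IFNγ, *Odc1* and *Asl* stay within 2 of zero, and in frHMGB1 only *Ass1* is filled.

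Counted together, 1 of the 8 members was called higher in frHMGB1 and 0 lower, against 1.31% and 5.69% of all 16919 tested genes. At an unadjusted p under 0.05 the counts were 2 and 0, and DESeq2 called 1 and 0. All 8 members are protein-coding, and of the 13025 tested protein-coding genes 1.44% were called higher and 0.422% lower. In dsHMGB1, 6 of 8 were called higher and 1 lower, against 23.3% and 24.2% of all genes. The same 6 and 1 were called in LPS (26.7% and 36.2% of all genes) and in LPS/IFNγ (29.0% and 31.2%). The 6 were *Nos2*, *Gch1*, *Slc7a2*, *Arg2*, *Odc1* and *Ass1*, and the 1 was *Asl*. The 3 comparisons share the PBS libraries, so they are not separate evidence.

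By fold change alone, 5 of 8 members were above 2 on the log2 scale in dsHMGB1, LPS and LPS/IFNγ, where 8.43%, 10.9% and 12.1% of all genes were, and 0 of 8 in frHMGB1, where 0.609% were. These 5 were *Nos2*, *Gch1*, *Slc7a2*, *Arg2* and *Ass1*. Over the 8 members the median log2 fold change was 0.29 for frHMGB1, 2.32 for dsHMGB1, 3.27 for LPS and 3.01 for LPS/IFNγ, and that over all genes in the same DESeq2 fit was -0.01, -0.10, -0.21 and -0.13. In edgeR, scaling by library totals in place of TMM moved the median of all genes from -0.11 to -0.46 in dsHMGB1, from -0.27 to -0.89 in LPS and from -0.15 to -0.81 in LPS/IFNγ, and the share of called genes that were higher from 49.0% to 28.1%, from 42.5% to 21.9% and from 48.2% to 25.3%. The 6 members stayed called higher in LPS and LPS/IFNγ under that scaling, and 5 of them in dsHMGB1, all but *Odc1*.

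The redox isoforms, at the same dose of 5 µg/mL, differed in 7 of 8 members. In dsHMGB1, 6 were called higher than in frHMGB1 and 1 lower, against 27.7% and 23.1% of all genes. The log2 difference was 10.40 for *Nos2* (standard error 0.27, edgeR adjusted p = 1.35e-09), 4.12 for *Slc7a2* (standard error 0.21, edgeR adjusted p = 1.08e-08), 3.23 for *Gch1* (standard error 0.12, edgeR adjusted p = 6.01e-11), 2.15 for *Arg2*, 1.66 for *Ass1* and 0.42 for *Odc1*. For *Asl* it was -0.43 (standard error 0.21, edgeR adjusted p = 0.0447), a call that was lost when any of the 6 libraries was left out. That of *Odc1* was lost without dsHMGB1 replicate 1, at 0.33, and with scaling by totals, at 0.02.

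LPS exceeded dsHMGB1 in 6 of 8 members and was lower in 0, against 10.6% and 15.8% of all genes. By DESeq2 and at an unadjusted edgeR p under 0.05 these counts were again 6 and 0. The largest differences were those of *Nos2* and *Slc7a2*, and the others were 1.05 for *Arg2*, 0.85 for *Ass1* (standard error 0.08, edgeR adjusted p = 1.91e-05), 0.63 for *Gch1* (standard error 0.12, edgeR adjusted p = 0.000945) and 0.54 for *Odc1* (standard error 0.13, edgeR adjusted p = 0.00558). *Asl* differed by -0.16 (standard error 0.21, edgeR adjusted p = 0.447). With libraries scaled by their totals, *Odc1* (0.20) and *Arg2* (0.71) were no longer called and *Asl* (-0.49) was called lower.

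LPS/IFNγ exceeded dsHMGB1 in 5 of 8 members and was lower in 0, against 16.7% and 16.5% of all genes. DESeq2 and an unadjusted edgeR p under 0.05 also gave 5 and 0. The differences were 3.96 for *Nos2* (standard error 0.09, edgeR adjusted p = 1.44e-06), 1.99 for *Arg2* (standard error 0.24, edgeR adjusted p = 0.000332), 1.86 for *Slc7a2* (standard error 0.21, edgeR adjusted p = 2.29e-05), 0.46 for *Ass1* (standard error 0.08, edgeR adjusted p = 0.00133) and 0.42 for *Odc1* (standard error 0.13, edgeR adjusted p = 0.0125). The last was lost without dsHMGB1 replicate 2 (0.33) or LPS/IFNγ replicate 2 (0.40), and with scaling by totals both *Ass1* (0.13) and *Odc1* (0.10) were lost. *Asl* was lower in LPS/IFNγ than in dsHMGB1 in every library, at -0.35 (standard error 0.21, edgeR adjusted p = 0.144). It was called lower when the 2 groups were fitted alone (-0.36) and by library totals (-0.67), where 3 members were called higher and 2, *Asl* and *Gch1*, lower.

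Between LPS/IFNγ and LPS the members split. *Nos2* and *Arg2* were called higher in LPS/IFNγ than in LPS and *Gch1* and *Ass1* lower, so 2 of 8 in each direction, against 16.3% and 9.36% of all genes. *Slc7a2*, *Odc1* and *Asl* were lower in LPS/IFNγ than in LPS in every library, but were not called. Each of them was called lower when LPS/IFNγ and LPS were fitted alone, at -0.57, -0.10 and -0.18.

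Levels of different genes were compared in CPM per kb of exon. In PBS the highest member was *Asl* (14.3 ± 3.28, SD, n = 3), followed by *Odc1* (7.89 ± 0.291), *Gch1* (4.65 ± 0.0634), *Ass1* (3.29 ± 0.167) and *Slc7a2* (2.34 ± 1.02), with *Arg2* (0.187), *Arg1* (0.0857) and *Nos2* (0.044) far below. In LPS/IFNγ the order was *Nos2* (711 ± 8.91), *Slc7a2* (90.6 ± 1.59), *Gch1* (32.9 ± 1.08), *Ass1* (11.8 ± 0.528), *Odc1* (9.32 ± 0.245), *Asl* (5.01 ± 0.271), *Arg2* (2.85 ± 0.405) and *Arg1* (0.119 ± 0.037). The gene with the lowest mean in PBS was thus the highest in LPS/IFNγ. In PBS, *Nos2* and *Arg1* rested on 34 and 38 counts, and their order differed between libraries.

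**Figure D3:**
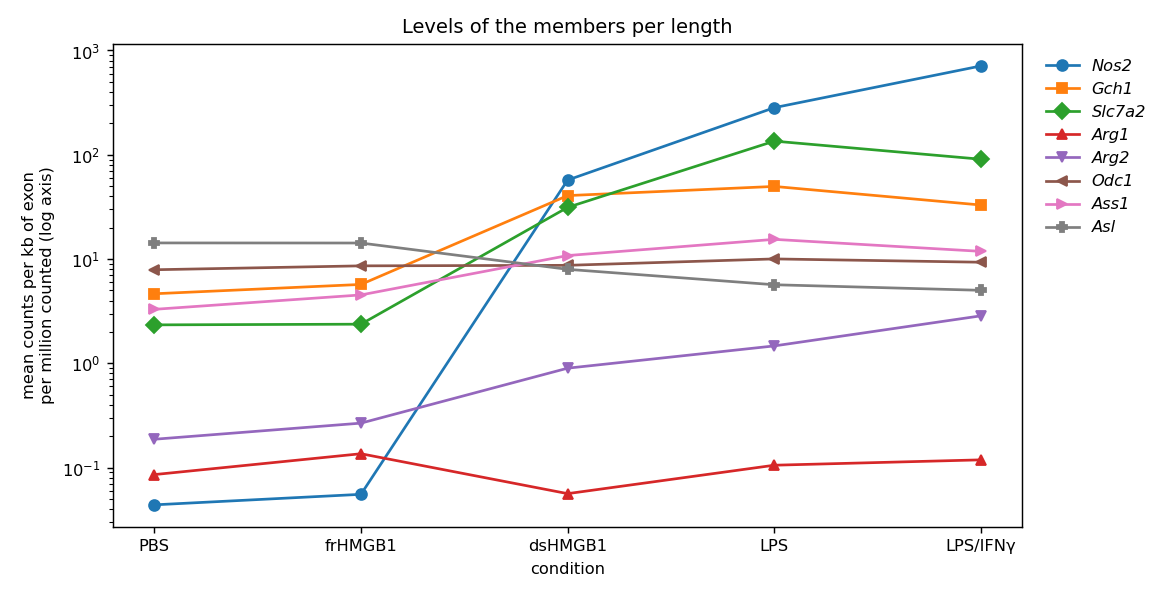
Mean CPM per kb of exon (y axis, log scale) of the 8 members in the 5 conditions (x axis), with a line for each gene. *Nos2* crosses all other lines between frHMGB1 and dsHMGB1, from 0.0554 to 57.2, while *Asl* starts highest in PBS at 14.3 and ends at 5.01 in LPS/IFNγ.

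Ratios of 2 members within a library need no scaling between libraries. They were taken per kb of exon, with 0.5 added to each count, and are given as the mean of the log2 ratios turned back to a ratio, with the lowest and highest library. *Ass1* to *Asl* was 0.235 (0.174 to 0.278) in PBS, 0.318 (0.292 to 0.363) in frHMGB1, 1.36 (1.27 to 1.5) in dsHMGB1, 2.73 (2.48 to 3.00) in LPS and 2.36 (2.35 to 2.39) with LPS/IFNγ. Per kb of exon, the pair that rebuilds arginine thus went from more *Asl* to more *Ass1* in the 3 stimuli that raised *Nos2*, with no overlap with PBS. The change against PBS does not depend on exon length, but which gene is higher does, with 4831 bases for *Asl* and 2414 for *Ass1*. In dsHMGB1 the raw counts were higher for *Asl* (2748, 2650 and 2816) than for *Ass1* (1740, 1985 and 1870).

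*Nos2* to *Arg2* was 0.295 (0.0976 to 0.971) in PBS, 0.0997 (0.0104 to 0.505) in frHMGB1, 63.6 (59.4 to 70.7) in dsHMGB1, 192 (185 to 198) in LPS and 250.3 (223.6 to 295.4) with LPS/IFNγ. *Nos2* to *Arg1* was 1.03 (0.310 to 10.6) in PBS and 6002 (4299 to 7455) in LPS/IFNγ, with few counts of *Arg1* in every library. *Arg1* to *Arg2* was 0.286 (0.0916 to 0.814) in PBS, 0.520 (0.343 to 0.795) in frHMGB1, 0.0523 (0.0171 to 0.0946) in dsHMGB1, 0.0633 (0.0276 to 0.115) in LPS and 0.0417 (0.0352 to 0.0520) with LPS/IFNγ, and dsHMGB1 and LPS overlapped PBS. *Gch1* to *Nos2*, the cofactor enzyme to the synthase that needs it, was 104 (87.0 to 143) in PBS, 212 (50.8 to 2031) in frHMGB1, 0.707 (0.667 to 0.791) in dsHMGB1, 0.176 (0.171 to 0.186) in LPS and 0.0464 (0.0449 to 0.0486) with LPS/IFNγ.

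*Slc7a2* to *Slc7a1*, the other main arginine importer of the same family, was 1.74 (1.65 to 1.84) in PBS, 1.59 (1.29 to 1.85) in frHMGB1, 1.99 (1.85 to 2.20) in dsHMGB1, 9.09 (8.67 to 9.44) in LPS and 7.71 (7.54 to 7.92) with LPS/IFNγ. Both transporters rose together in dsHMGB1, and *Slc7a2* rose further in LPS and LPS/IFNγ. Each stimulation was compared with PBS for 6 ratios by a two-sided exact permutation test, 24 tests in all. With 3 against 3 libraries the smallest p it can give is 0.1. Of the comparisons, 17 gave it, which became 0.141 after Benjamini-Hochberg adjustment over the 24 tests.

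**Figure D4:**
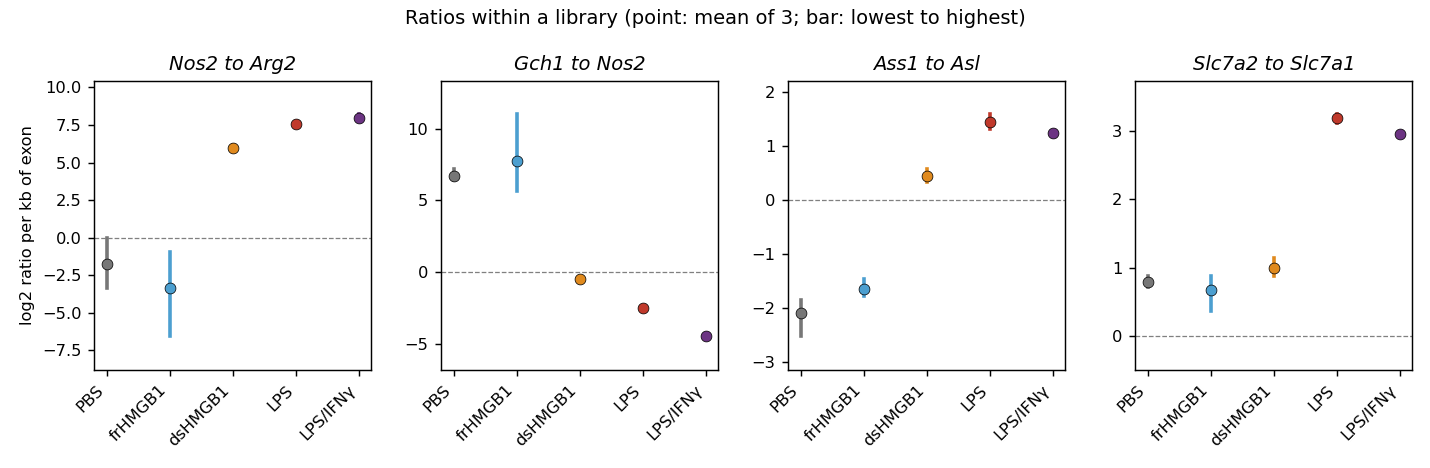
Log2 ratios per kb of exon within a library (y axis) for 4 pairs of genes in the 5 conditions (x axis), with points at the mean of 3 libraries and bars from the lowest to the highest. *Nos2* to *Arg2* and *Ass1* to *Asl* cross zero between frHMGB1 and dsHMGB1, *Gch1* to *Nos2* falls below zero, and *Slc7a2* to *Slc7a1* stands apart in LPS and LPS/IFNγ.

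A list of 65 other genes of the pathway gave the context, and 52 of them passed the filter on low counts. In frHMGB1, edgeR called 0 higher and 0 lower, with 1 and 3 at an unadjusted p under 0.05, and DESeq2 called 1 higher. In dsHMGB1, 10 were called higher and 22 lower, where 23.3% and 24.2% of all tested genes were. The list had 11 and 27 in LPS, against 26.7% and 36.2%, and 10 and 32 in LPS/IFNγ, against 29.0% and 31.2%, with medians of -0.38, -0.44 and -0.73 on the log2 scale. The counts of its groups are to be read against the same shares of all genes. Scaled by library totals, which moves all genes down, 6, 9 and 4 of the list were called higher and 32, 36 and 37 lower. Without PBS replicate 3, which was far from the other PBS libraries in several of these genes, 13, 15 and 12 were called higher and 26, 29 and 30 lower, and in frHMGB1 10 higher and 0 lower.

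Arginine transport held the gene of the list that rose most, *Slc7a1*. Of its 8 tested genes, 4 were called higher in dsHMGB1 and in LPS and 3 in LPS/IFNγ, and 1, 3 and 4 were called lower. *Slc7a1* rose from 857, 837 and 388 normalized counts in PBS to 8980, 11881 and 11029 in dsHMGB1, a log2 fold change of 3.93 (standard error 0.25, edgeR adjusted p = 5.78e-08), with 4.18 in LPS and 3.83 in LPS/IFNγ. *Slc3a2*, the heavy chain that amino acid exchangers share, rose by 1.77 in dsHMGB1 (standard error 0.15, edgeR adjusted p = 4.10e-08), 2.34 in LPS and 1.81 in LPS/IFNγ. *Slc7a8*, a light chain that pairs with it and carries neutral amino acids, rose by 2.26, 2.23 and 1.33, and without PBS replicate 3 by 1.87, 1.84 and 0.94.

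Most other genes of the tetrahydrobiopterin pathway fell in the stimuli in which *Gch1* rose. Of 5 tested, 4 were called lower and 0 higher in each of dsHMGB1, LPS and LPS/IFNγ. The direction of *Pcbd2*, also among the 5, turned on PBS replicate 3, and the gene is named after its values were seen. It had 409, 406 and 1468 normalized counts in PBS, and 514, 410 and 418 in dsHMGB1. In LPS it had 545, 536 and 532, and in LPS/IFNγ 439, 437 and 411. *Pts*, the second enzyme of the synthesis, had 766, 736 and 929 normalized counts in PBS and 467, 455 and 468 in LPS/IFNγ, a log2 fold change of -0.80 (standard error 0.11, edgeR adjusted p = 7.41e-06), with -0.51 in dsHMGB1 and -0.61 in LPS. *Spr*, the last enzyme of the synthesis, had -1.25 in dsHMGB1, -1.66 in LPS and -2.12 with LPS/IFNγ (standard error 0.35, edgeR adjusted p = 7.68e-05), and *Qdpr*, which recycles the cofactor, -0.76, -0.80 and -0.91. PBS replicate 3 had 3348 normalized counts of *Spr* against 1116 and 999 in the other PBS libraries, and without it *Spr* was at -0.47, -0.87 and -1.34 and *Qdpr* at -0.29, -0.34 and -0.45, all still called. *Gchfr*, the feedback regulator of the *Gch1* enzyme, had 33 counts over all libraries and was not tested.

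Other genes of the list modulate NO synthases or act downstream of NO. Of 10 tested modulators, 5 were called lower and 2 higher in dsHMGB1, 5 and 1 in LPS and 7 and 1 in LPS/IFNγ. *Nostrin*, which binds the endothelial synthase, had -1.81 in dsHMGB1 (standard error 0.16, edgeR adjusted p = 7.15e-08), -1.81 in LPS and -1.65 in LPS/IFNγ. *Prmt5*, an arginine methyltransferase, had -0.65, -1.31 and -0.73, and *Ddah2*, which breaks down methylated arginines, -1.52, -1.18 and -0.76, or -0.87, -0.53 and -0.11 without PBS replicate 3, the last of which was not called. *Cbr1*, one of the reductases that can act on S-nitrosoglutathione, had -1.55, -1.70 and -2.19, or -1.02, -1.16 and -1.65 without that library. *Adh5*, the S-nitrosoglutathione reductase, was called lower in LPS (-0.37) and LPS/IFNγ (-0.54), in LPS only with PBS replicate 3 included. The other synthases, *Nos1* and *Nos3*, had 26 and 51 counts over all 15 libraries, and the 4 genes of soluble guanylate cyclase, the NO receptor, had 2 to 12.

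Polyamine genes were called in both directions. Of 14 tested polyamine genes, 2 were called higher and 3 lower in dsHMGB1, 4 and 5 in LPS and 3 and 6 in LPS/IFNγ. Of all tested genes, 23.3% and 24.2% were called in dsHMGB1, 26.7% and 36.2% in LPS, and 29.0% and 31.2% in LPS/IFNγ. These counts therefore do not set polyamine genes apart. *Paox*, a polyamine oxidase, had 572, 496 and 610 normalized counts in PBS and 63.6, 93.6 and 89.5 in LPS/IFNγ, with log2 fold changes of -2.29 in dsHMGB1 (standard error 0.19, edgeR adjusted p = 3.97e-07), -2.54 in LPS and -2.76 in LPS/IFNγ. Spermidine synthase *Srm* had -0.26 in dsHMGB1 (0.04 without PBS replicate 3), which was not called, -1.24 in LPS and -1.92 in LPS/IFNγ, while spermine synthase *Sms* had 0.46, 1.23 and 0.17, and the last was called only without PBS replicate 3. In the step from LPS to LPS/IFNγ, *Sms* went from 2490, 2506 and 2404 normalized counts to 1142, 1214 and 1200.

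Ornithine and arginine also feed proline and creatine synthesis. Of 8 tested proline and glutamate genes, 5 were called lower in dsHMGB1 and in LPS and 6 in LPS/IFNγ, and 1 was called higher each time. That 1 was *Aldh18a1*, which starts proline and ornithine synthesis from glutamate, with 2.14 in dsHMGB1 (standard error 0.19, edgeR adjusted p = 1.31e-06), 2.01 in LPS and 1.81 in LPS/IFNγ. *Aldh4a1*, which ends proline breakdown, had -1.87, -2.69 and -2.61, or -1.37, -2.19 and -2.11 without PBS replicate 3. Of 4 creatine genes, 3 were called lower in each of the 3 stimuli, and 1 was called higher in LPS/IFNγ. The transporter *Slc6a8* had -1.09 in dsHMGB1, -1.30 in LPS and -1.40 with LPS/IFNγ (standard error 0.07, edgeR adjusted p = 1.02e-08). *Ckb* had -1.34, -1.22 and -1.42 and *Gamt* -0.82, -0.79 and -0.94, and without PBS replicate 3 these were -0.72, -0.60 and -0.80, and -0.40, -0.36 and -0.52.

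In the list's group of urea cycle and arginine breakdown, *Cps1*, *Otc* and *Nags* were almost absent, unlike the members *Ass1* and *Asl*, which belong to the same cycle. *Cps1*, the enzyme that starts it, had 0 counts in all 15 libraries, where a count of 0 allows up to 3 a library, *Otc* had 6 and *Nags* 27. *Agmat*, which hydrolyses agmatine, had 3. *Azin2*, an antizyme inhibitor related to *Odc1*, was the 1 tested gene of this group and was called higher in all 3 stimuli, at 0.71 in dsHMGB1 (standard error 0.21, edgeR adjusted p = 0.0101), 1.23 in LPS and 1.69 in LPS/IFNγ. *Slc25a2*, a mitochondrial ornithine carrier, had 60 counts and *Pcbd1*, a cofactor recycling enzyme, had 27, and neither was tested. Their relatives *Slc25a15* and *Pcbd2* in the list were tested, and are named after their values were seen. In PBS they had 314, 355 and 299, and 409, 406 and 1468 normalized counts.

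**Figure D5:**
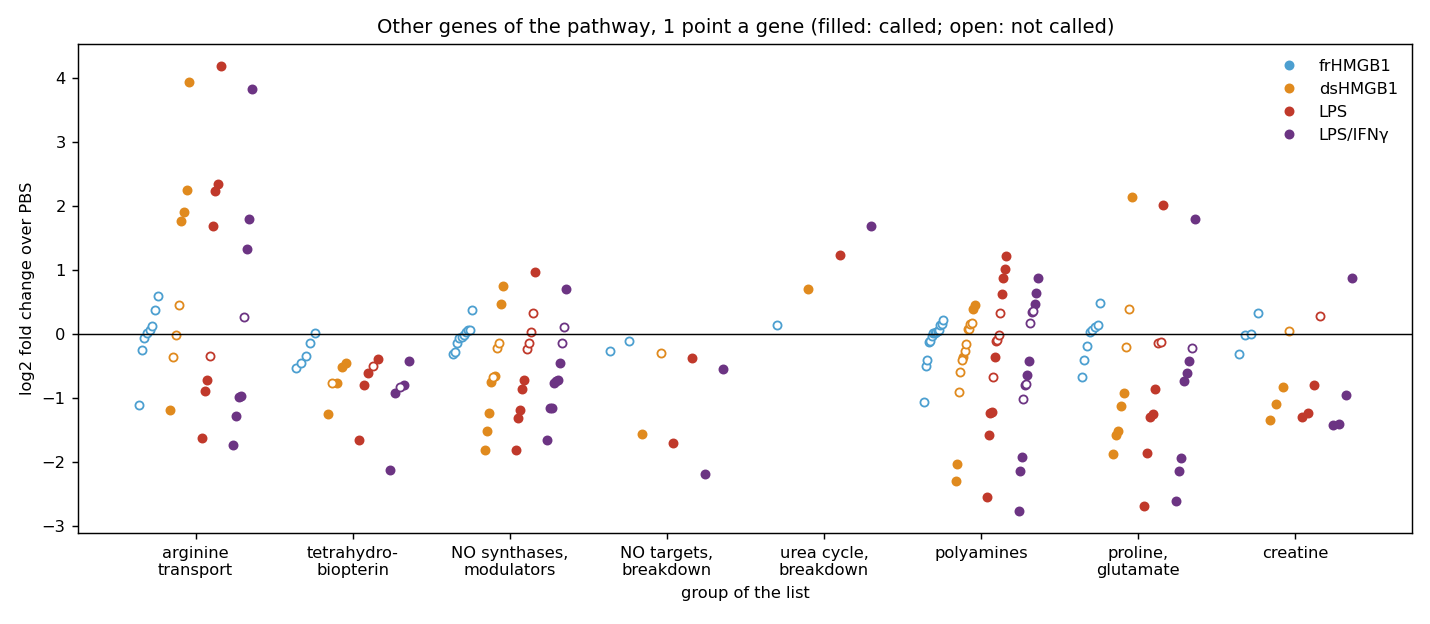
Log2 fold changes over PBS (y axis) of the 52 tested genes of the list by group (x axis), 1 point a gene, coloured by stimulation and filled where edgeR called the gene. In frHMGB1 no point is filled, arginine transport holds the highest points with *Slc7a1* at 4.18 in LPS, and most filled points of the other groups lie below zero.

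Across the 15 libraries, log2(normalized count + 1) of the members other than *Arg1* and *Asl* moved together, and *Asl* moved the other way. Pearson's r with *Nos2* was 0.97 for *Gch1*, *Slc7a2* and *Ass1*, 0.93 for *Arg2*, 0.92 for *Odc1*, -0.82 for *Asl* and 0.27 for *Arg1*. The points share 5 conditions and the PBS libraries, so these values describe the conditions and have no p. The search covered 10102 protein-coding genes whose normalized counts averaged 100 or more. Those most like *Nos2* by this measure were *Arrdc4*, *Nol10* and *Fscn1* (r = 0.993 each). Those most like *Gch1* were *Daxx*, *Irf7* and *Mthfd2* (0.998 each), and most like *Slc7a2* were *Cd44* (0.999), *Aftph* and *Mark2* (0.998 each).

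For *Arg2* the nearest were *Casp8*, *Fbxw11* and *Inpp5b* (0.993, 0.992 and 0.992), for *Odc1* *H2-T23*, *Nrbp1* and *Rexo4* (0.992, 0.987 and 0.986), for *Ass1* *Stard3*, *Nfkbia* and *Stx6* (0.997, 0.997 and 0.996), and for *Asl* *Zmat5*, *Rhbdd3* and *Adam15* (0.986, 0.984 and 0.982). *Nfkbia* encodes an inhibitor of NF-kB. For *Arg1* the highest were lower, at 0.886, 0.864 and 0.849 for *Zfp51*, *Zbtb49* and *Ptbp2*, and with so few counts they are no sign of a shared pattern.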

How the data were processed

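RNA-Seq libraries of BMDMs in 5 conditions, 3 technical replicates each, were analysed. Per the methods of the study and the labels, the authors made stranded mRNA libraries, aligned them with STAR to GRCm38, and applied DESeq2 with a cut at a log2 fold change of 2 and no p. The deposited table holds raw counts per Ensembl gene, which the authors made without normalization. How the counting was done (program, annotation, strand) is not given in the sources used here. Culture before seeding lasted 8 to 9 days by the methods and 10 days by the labels. Of the identifiers, 51661 of 51763 were found in GENCODE M21, which gave positions, gene types and exon lengths. Total counts set the precision, which is low for *Arg1*, and for *Nos2* in PBS.

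The filterByExpr function of edgeR (minimum count 10, minimum total 15) left 16919 genes. Calls rest on edgeR 4.0.16 (quasi-likelihood F test, TMM scaling), with 1 model for the 15 libraries, no covariate, and a Benjamini-Hochberg adjusted p under 0.05 over all these genes. Normalized counts, unshrunken log2 fold changes and standard errors are those of DESeq2 1.42.0, in R 4.3.3. CPM per kb of exon, ratios with 0.5 added, and exact permutation tests were computed in Python 3.11.15 with scipy 1.17.1. The code was tested on simulated counts. Replicate counts differed by more than sampling noise in every pair (chi-square per degree of freedom 4.08 to 778), so no library was counted as a copy.

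The members, the pathway list and the marker lists were chosen with earlier results of these data known. Named genes are the 8 members, up to 3 called genes per group of the pathway list with the largest fold change over PBS and a mean of at least 100 normalized counts, genes of the list that were not detected, and the 3 genes most correlated with each member. One gene that this rule names is not reported here. Alternatives were DESeq2's Wald test, RLE scaling, no filter, a filter of 1 CPM in 3 libraries, protein-coding genes only, a fold change above 2 tested, the compared groups alone, a replicate block, each library left out, and, added after the TMM factors were seen to differ between conditions, scaling by library totals.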

Additional observations from a re-analysis of the deposited data

How the results depend on the processing

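Of 952 values of single members under the alternatives, 878 kept their side of the threshold, 63 fell out of the calls, 9 came into them and 2 changed sign with a call: *Gch1* between LPS/IFNγ and dsHMGB1 scaled by library totals (-0.30) and *Slc7a2* in frHMGB1 without PBS replicate 3 (-0.24, in a range of -0.24 to 0.19 over the libraries left out). Among the 878, the sign turned in 15, none of them called, for *Nos2*, *Slc7a2*, *Odc1* and *Asl* in frHMGB1, *Arg1* in dsHMGB1 and in LPS/IFNγ against LPS, and *Gch1* in LPS/IFNγ against dsHMGB1. Of 144 log2 ratios against PBS, 141 kept their sign and 3 in frHMGB1 turned with a library left out, *Nos2* to *Arg2* from -1.57 to 0.06 and *Gch1* to *Nos2* from 1.03 to -0.60 without frHMGB1 replicate 3, and *Slc7a2* to *Slc7a1* from -0.13 to 0.03 without frHMGB1 replicate 2. Of the 52 tested genes of the pathway list, edgeR as described called 0 in frHMGB1, 32 with dsHMGB1, 38 with LPS and 42 with LPS/IFNγ against PBS, 30 in dsHMGB1 against frHMGB1, 12 in LPS and 20 in LPS/IFNγ against dsHMGB1, and 13 in LPS/IFNγ against LPS. Called members in frHMGB1, 1 as described, were 0 with no filter, over protein-coding genes alone, in the groups alone and for a fold above 2, and 1 to 3 with a library left out. A test of a fold above 2 called 2 members in place of 6 in LPS against dsHMGB1, 3 in place of 5 in LPS/IFNγ against dsHMGB1 and 0 in place of 4 in LPS/IFNγ against LPS, and of the pathway list 13 in dsHMGB1, 14 in LPS, 15 in LPS/IFNγ, 8 in dsHMGB1 against frHMGB1, and 0, 3 and 1 in the 3 comparisons among stimuli. Groups fitted alone called 19 genes of the list in dsHMGB1 and 34 in LPS/IFNγ against LPS, with 7 members there in place of 4. DESeq2 called 1 of the list in frHMGB1, and scaling by totals 31 in LPS/IFNγ against dsHMGB1. With a library left out the list had 0 to 10 in frHMGB1, 7 to 10 in LPS against dsHMGB1 and 10 to 14 in LPS/IFNγ against dsHMGB1. The causes were not tested.

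Scaling by totals moved the share of called genes that were higher from 54.6% to 34.5% in dsHMGB1 against frHMGB1, from 40.1% to 16.0% in LPS against dsHMGB1 and from 50.2% to 25.7% in LPS/IFNγ against dsHMGB1. Replicate numbers were not used as pairs, and same-numbered deviations correlated from -0.386 to 0.375 over the comparisons. In LPS against dsHMGB1 they correlated weakly, at 0.066, 0.071 and 0.053, but each LPS library correlated best with the dsHMGB1 library of its own number. With a replicate block, *Arg2* in LPS against dsHMGB1 was not called (1.04), and no other member call changed. Few counts limit *Arg1*, *Arg2* and *Nos2* in PBS and frHMGB1.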
